A study of Mus musculus with 6 samples.

Results

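The genes described here take up, store, release and sense iron inside the cell, and were chosen as the rows of the deposited gene table named Tfrc, Slc40a1, Slc11a2, Fth1, Ftl1, Ncoa4, Ireb2, Aco1, Steap3 and Fbxl5. All 10 were found among 27198 listed genes, each as 1 row, and all 10 passed the filter on low counts. Hematopoietic stem cells (HSCs), which renew themselves and give rise to every blood lineage, were sorted from unirradiated male wild-type C57BL/6 mice 8 to 10 weeks old. Ctrl mice received vehicle, and l-FA mice received the plant phenolic acid ferulic acid (FA) for a long term, by daily intraperitoneal injection of 50 mg/kg for 30 days. The sort took lineage-negative, Sca-1-positive, c-Kit-positive, CD34-negative, Flk2 (CD135)-negative cells, and their RNA was amplified as cDNA and sequenced in 3 Ctrl and 3 l-FA libraries. The number of mice behind a library is not given in the sources used here, so n counts libraries and p-values measure only the spread between libraries.

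Iron enters most cells bound to transferrin. The transferrin receptor (Tfrc) carries it into endosomes, the reductase STEAP3 (Steap3) reduces it there, and the transporter DMT1 (Slc11a2) moves it into the cytosol, where it is used, stored in ferritin shells of heavy (Fth1) and light (Ftl1) chains, or exported by ferroportin (Slc40a1). NCOA4 delivers ferritin to the lysosome for breakdown. The iron regulatory proteins IRP1 (Aco1) and IRP2 (Ireb2) bind a hairpin in messenger RNAs, the iron-responsive element (IRE), when iron is scarce, and FBXL5 (Fbxl5) marks IRP2 for degradation when iron and oxygen are sufficient. An IRP on an IRE in the 5′ untranslated region blocks translation, as in both ferritin chains and ferroportin, and one on the IREs in the 3′ untranslated region of Tfrc protects that messenger RNA from decay. RNA sequencing measures the amount of RNA and not its translation.

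Libraries held 19287735 to 20380610 counts. RNA of the sort's positive markers was present in Ctrl, with Kit at 1067 ± 18.8 CPM (counts relative to the TMM-scaled library total; SD, n = 3). Ly6a, which encodes Sca-1, was at 45.0 ± 10.9 CPM. RNA of markers the sort excluded was present at higher levels than Ly6a, with Cd34 at 1343 ± 18.4 and Flt3 at 759 ± 3.43 CPM. In l-FA each was higher and the groups did not overlap, with Kit at 1157 ± 9.92, Ly6a at 76.8 ± 1.74, Cd34 at 1579 ± 38.2 and Flt3 at 1183 ± 19.8 CPM. On 90 immunoglobulin V rows averaging at least 5 counts, pairs of libraries within a group had median chi-square values of 0.359 to 0.550, against 0.455 for pure counting error, and pairs across groups had values of at least 14.1. RNA of the HSC list summed to 2213 to 2331 CPM in Ctrl and 2583 to 2606 CPM in l-FA, with 9 higher and 1 lower of 15 genes tested. Of all genes tested 25.5% were higher and 25.0% lower at the same threshold, an adjusted p under 0.05 from edgeR. Of these V rows, 12 had counts in Ctrl only and 22 in l-FA only. Whether the libraries of a group came from shared material was not tested beyond these values. If they did, a difference between treatments cannot be told apart from one between 2 pools, and the p-values below do not measure spread between animals.

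Of the 10 genes, Tfrc, Slc11a2 and Slc40a1 were lower and Ireb2 and Fth1 higher in HSCs of l-FA-treated mice at an adjusted p under 0.05 (edgeR's quasi-likelihood test, Benjamini-Hochberg adjustment over 16520 genes tested). This is 5 of 10, where 50.5% of all genes tested passed in either direction (25.0% lower and 25.5% higher), a share close to that of the background. Past a fold change above 2 as well, Tfrc alone passed, against 11.8% of all genes and 5.1% for the lower direction. The libraries of the groups did not overlap for these 5 genes and overlapped for the other 5, where 60.3% of all genes tested did not overlap. The median log2 fold change of the 10 was -0.27, and that of all genes tested 0.0035.

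**Figure D1:**
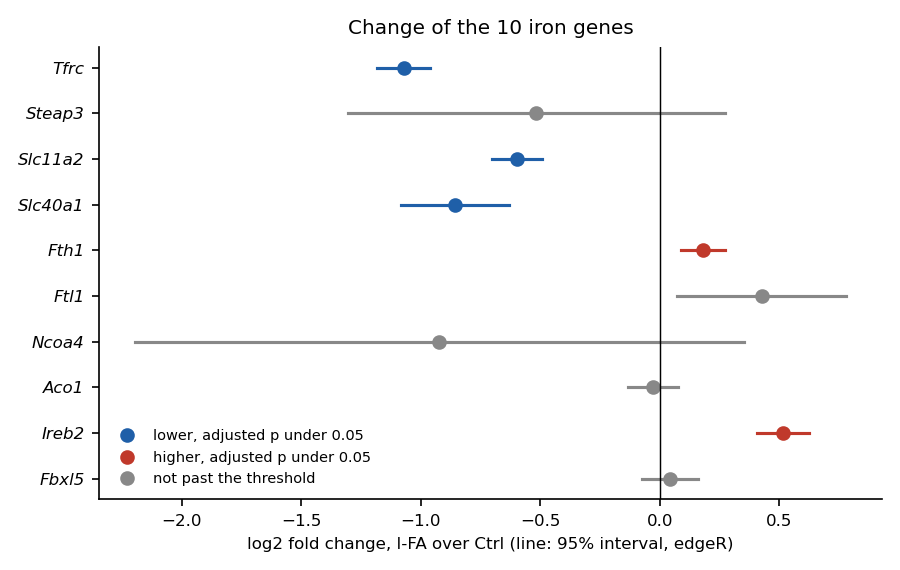
Log2 fold change (horizontal axis) of each of the 10 genes, l-FA over Ctrl, as a point with its 95% interval from edgeR. Tfrc, Slc11a2 and Slc40a1 lie below 0 and Fth1 and Ireb2 above it in colour, and Ncoa4 and Steap3 have the widest intervals.

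The hairpins that separate these genes into translational and stability targets are printed because the changes are set beside them below. GENCODE M21 transcripts on GRCm38, matched by gene identifier, were searched on the transcript strand for the loop CAGTGN with an unpaired C 6 bases before it and a 5-base stem between, G-T pairs allowed. All 5 stem bases paired in Tfrc, Slc40a1, Fth1 and Ftl1 and in none of the transcripts of the other 6 genes, and in 1.34% of 21901 genes with a protein-coding transcript. The loop was in 1 of 3 protein-coding transcripts of Tfrc, 1 of 4 of Slc40a1, 4 of 5 of Fth1 and 1 of 2 of Ftl1. Counts per gene do not separate transcripts with and without it. With 4 of 5 pairs Slc11a2 was added, in 1 of its 6 protein-coding transcripts, a looser rule met by 10.7% of genes. A match describes letters and not binding. The loop is in capitals:
Tfrc loop A (chr16:32631221-32631246, + strand): ttatcggaagCAGTGCcttccataat
Tfrc loop B (chr16:32631600-32631625, + strand): ttatcgggagCAGTGTcttccataat
Tfrc loop C (chr16:32631665-32631690, + strand): atatcggagaCAGTGAtctccatatg
Tfrc loop D (chr16:32631712-32631737, + strand): ttatcgggaaCAGTGTttcccataat
Slc11a2 (chr15:100395154-100395179, - strand): ccatcagagcCAGTGTgtttctatgg
Slc40a1 (chr1:45925466-45925491, - strand): acttcagctaCAGTGTtagctaagtt
Fth1 (chr19:9982734-9982759, + strand): cctgcttcaaCAGTGCttgaacggaa
Ftl1 (chr7:45459780-45459805, - strand): cttgcttcaaCAGTGTttgaacggaa
Ftl1-ps1 (chr13:74406430-74406455, + strand): cttgcttcaaCAGTGTttgaacggaa

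The 4 Tfrc loops began at bases 3327, 3706, 3771 and 3818 of a transcript of 4890 bases, all in its 3′ untranslated region. The Slc11a2 loop also lay 3′ of the coding sequence, at base 1809 of 4415. The loops of Slc40a1, Fth1 and Ftl1 lay in the 5′ untranslated region, at bases 102, 99 and 90. The printed stretch of Ftl1-ps1, a row annotated as a light chain pseudogene but listed as protein-coding, is the same as that of Ftl1.

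**Figure D2:**
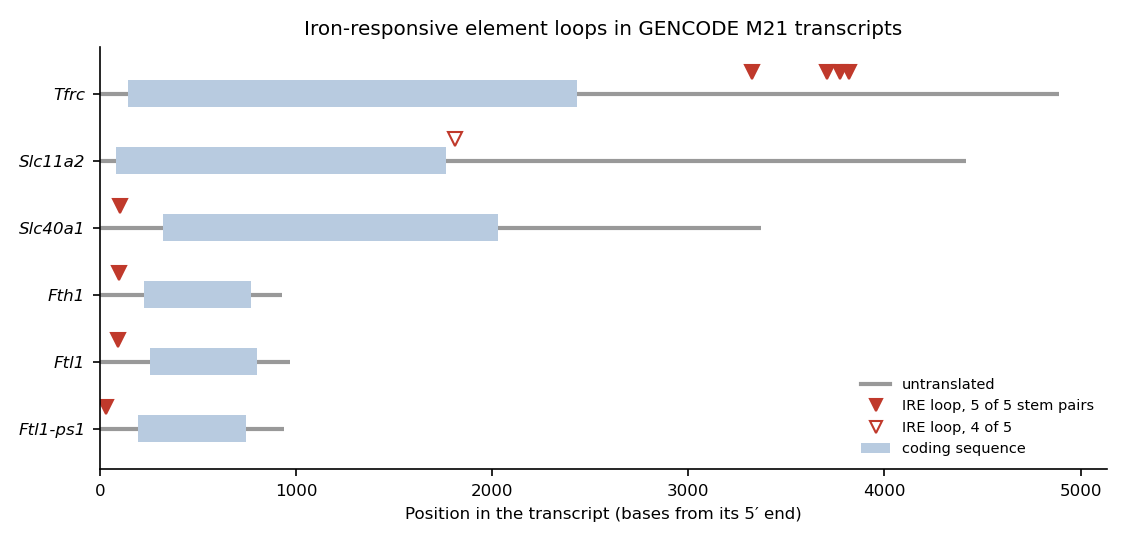
Position of IRE loops (triangles) in 1 GENCODE M21 transcript per gene, in bases from its 5′ end, with the coding sequence as a box. Tfrc holds 4 loops and Slc11a2 1 loop after the coding sequence, and the other genes 1 loop before it.

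Positions of genes are those of the table, on GRCm39 as the submitters' processing notes name it. Among the genes of uptake, Tfrc (ENSMUSG00000022797, listed on chromosome 16 from 32427738 to 32451612) had 114, 109.7 and 109 CPM in the Ctrl libraries and 54.5, 53.7 and 49.9 CPM in the l-FA libraries. Every l-FA library was near the same level, well under the lowest Ctrl library. Mean CPM was 111 ± 3.01 for Ctrl and 52.7 ± 2.47 for l-FA (n = 3, SD), a 2.10-fold fall (-1.07 ± 0.046 on the log2 scale, SE, adjusted p = 1.74e-05 from edgeR). Slc11a2 (ENSMUSG00000023030, listed on chromosome 15 from 100285779 to 100322953) had 38.2, 38.8 and 38.0 CPM in the Ctrl libraries and 25.3, 25.3 and 25.4 CPM in the l-FA libraries. The 3 libraries of each group were almost level with each other, and it fell 1.51-fold (-0.60 ± 0.044 on the log2 scale, SE, adjusted p = 0.000105 from edgeR). The counts do not separate its transcripts with and without the IRE. Steap3 (ENSMUSG00000026389, listed on chromosome 1 from 120118487 to 120200435) had 11.3, 27.9 and 28.3 CPM in the Ctrl libraries and 14.8, 16.6 and 15.8 CPM in the l-FA libraries. Ctrl library 1 lay below all l-FA libraries and the other two Ctrl libraries above them, and the change did not pass (-0.52 ± 0.328 on the log2 scale, SE, adjusted p = 0.236 from edgeR, 95% interval -1.30 to 0.27). Without Ctrl library 1 it passed, with a log2 fold change of -0.84 (adjusted p = 0.000973 from edgeR).

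The exporter Slc40a1 (ENSMUSG00000025993, listed on chromosome 1 from 45947228 to 45965683), the known route by which free iron leaves the cell, had 24.9, 27.7 and 24.1 CPM in the Ctrl libraries and 13.5, 15.7 and 13.2 CPM in the l-FA libraries. The groups were apart, and the mean went from 25.6 ± 1.90 to 14.1 ± 1.34 CPM (SD, n = 3), a 1.81-fold fall (-0.86 ± 0.094 on the log2 scale, SE, adjusted p = 0.000499 from edgeR). It was thus lower together with the importers Tfrc and Slc11a2, while carrying its loop at the other end of the transcript.

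In bulk libraries fewer cells of a type and less RNA per cell cannot be told apart, so lists of markers of other cells are given beside these falls, where 50.5% of all genes tested were called. Granulocyte-monocyte progenitor genes had 10 lower and 1 higher of 11 tested, and the list, in which Mpo and Elane were most abundant, summed to 24749 to 25699 CPM in Ctrl and 6559 to 6877 CPM in l-FA. Neutrophil genes had 9 lower and 0 higher of 10 and summed to 53.1 to 61.2 CPM in Ctrl and 19.8 to 21.6 CPM in l-FA. Genes of dividing cells had 9 lower and 1 higher of 15 and summed to 6426 to 6603 CPM in Ctrl and 6043 to 6089 CPM in l-FA. The sums of these lists were lower in l-FA together with Tfrc, Slc11a2 and Slc40a1, but not to a like extent. The median log2 fold change was -1.91 for granulocyte-monocyte progenitor, -1.07 for neutrophil and -0.12 for dividing-cell genes. Erythroid genes, whose precursors carry much transferrin receptor, went the other way, with 2 lower and 8 higher of 16 and a sum of 1070.1 to 1139 CPM in Ctrl and 1515 to 1585 CPM in l-FA, of which Car2 and Tfr2 were most abundant. Megakaryocyte genes had 0 lower and 4 higher of 7 and summed to 291 to 297 CPM in Ctrl and 404 to 417 CPM in l-FA, and lymphoid genes had 0 lower and 2 higher of 5 and summed to 518 to 524 CPM in Ctrl and 707 to 719 CPM in l-FA. Macrophage genes, whose cells recycle iron through ferroportin, had 3 lower and 2 higher of 10, a share called close to that of all genes and in both directions, and summed to 75.7 to 80.1 CPM in Ctrl and 67.3 to 70.6 CPM in l-FA. The most abundant of them, Cd68 and Cd163, did not pass, while Vcam1, Adgre1 and Mrc1 were lower and C1qb and Cd5l higher. Vcam1, Adgre1 and Mrc1 thus went the same way as Slc40a1, with log2 fold changes of -1.12, -3.08 and -0.94. C1qb, at 1.21, and Cd5l went the other way. Cd5l and Marco had few counts, all of them in l-FA (11, 15 and 11 for Cd5l, 9, 12 and 6 for Marco). Both were at 0 in every Ctrl library, and Marco was not tested. The part of these cells in the falls was not tested.

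**Figure D3:**
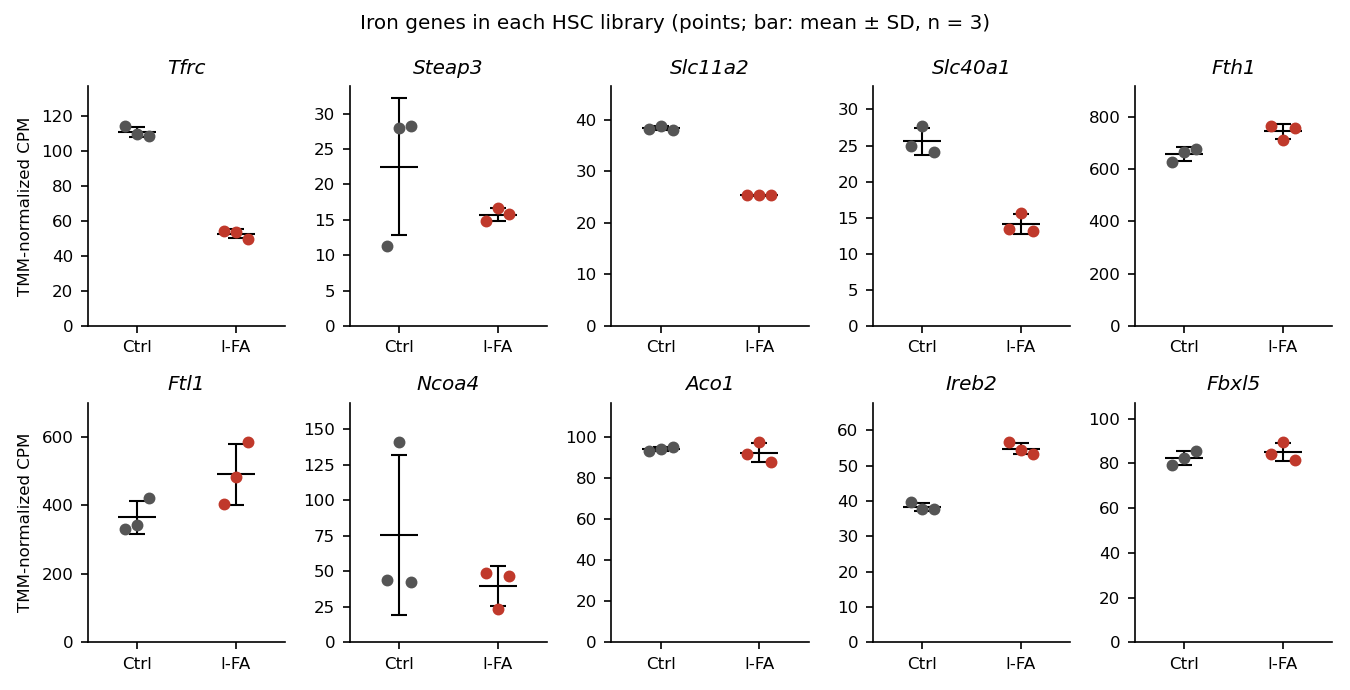
TMM-normalized CPM (vertical axis, from 0) of each of the 10 genes in each library (points), with the mean and SD of 3 libraries per group. Tfrc, Slc11a2, Slc40a1, Fth1 and Ireb2 show groups that do not overlap, and single Ctrl libraries stand apart in Steap3 and Ncoa4.

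Of the storage genes, Fth1 (ENSMUSG00000024661, listed on chromosome 19 from 9957962 to 9962462), the chain that oxidizes iron for storage, had 629, 666 and 679 CPM in the Ctrl libraries and 766, 714 and 758 CPM in the l-FA libraries. All l-FA libraries were above all Ctrl libraries, by a small margin, and the rise was 1.13-fold (0.18 ± 0.039 on the log2 scale, SE, adjusted p = 0.00843 from edgeR). It did not pass a test against a 1.2-fold change (adjusted p = 1 from edgeR's glmTreat). Ftl1 (ENSMUSG00000050708, listed on chromosome 7 from 45107368 to 45109308), the light chain that aids mineral formation in the shell, had 332, 343 and 421 CPM in the Ctrl libraries and 404, 484 and 584 CPM in the l-FA libraries. The lowest l-FA library lay under the highest Ctrl library, and the change did not pass (0.43 ± 0.148 on the log2 scale, SE, adjusted p = 0.0506 from edgeR, 95% interval 0.07 to 0.78). It passed under some settings, with an adjusted p of 0.0486 under RLE scaling, 0.0329 without Ctrl library 3 and 0.0169 without l-FA library 1 (edgeR).

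The light chain could not be read from the Ftl1 row alone. Ftl1-ps1 (ENSMUSG00000062382, listed on chromosome 13 from 74547813 to 74555465) had 6683, 19194 and 21485 counts for Ctrl libraries 1 to 3 and 6967, 19233 and 19359 for l-FA libraries 1 to 3. Library 1 of each group was low and libraries 2 and 3 high, a split by replicate number and not by group. Of the 50-base stretches of its transcripts, 57.6% occur unchanged in Ftl1, so a read within them has a match in both rows. Gm56125 (ENSMUSG00002076377, listed on chromosome 7 from 45107513 to 45107621), a microRNA row inside Ftl1 singled out for its values, held 1, 1 and 1 counts for Ctrl and 1, 5387 and 1 for l-FA, so that l-FA library 2 stood apart and the others had 1 count each. Summed, the 3 rows had 680.1, 1372 and 1499 CPM in the Ctrl libraries and 736, 1711 and 1553 CPM in the l-FA libraries, and the groups overlapped (log2 fold change 0.17, adjusted p = 0.745 from edgeR). With all listed light chain pseudogene rows instead of Gm56125 it was 0.07 (adjusted p = 0.891 from edgeR). For the heavy chain 1.59% of its 50-base stretches occur in other genes, and with its 3 pseudogene rows added its log2 fold change stayed 0.18 (adjusted p = 0.00824 from edgeR). Fth1-ps had 13.4, 13.8 and 15.6 CPM in the Ctrl libraries and 15.6, 16.4 and 17.8 CPM in the l-FA libraries, and Ftl2-ps 13.2, 14.0 and 15.3 CPM in the Ctrl libraries and 14.4, 13.2 and 12.6 CPM in the l-FA libraries, both far under their parent rows.

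The ferritin receptor gene Ncoa4 (ENSMUSG00000056234, listed on chromosome 14 from 31881822 to 31901812) had 838, 2628 and 855 counts for Ctrl libraries 1 to 3 and 1034, 478 and 935 for l-FA libraries 1 to 3. Ctrl library 2 stood above and l-FA library 2 below the other four, and the change did not pass (-0.92 ± 0.532 on the log2 scale, SE, adjusted p = 0.196 from edgeR, 95% interval -2.20 to 0.35). Without Ctrl library 2 the log2 fold change was -0.12 (adjusted p = 0.791 from edgeR). Most NCOA4 reads were on another row, Ncoa4-ps (ENSMUSG00000021908, listed on chromosome 12 from 119224713 to 119226590), a processed pseudogene of which 94.5% of 50-base stretches occur in Ncoa4. Ncoa4-ps held 3365, 3342 and 3301 counts for Ctrl and 3871, 3657 and 3588 for l-FA, and on the CPM scale the l-FA libraries lay just above the Ctrl libraries without passing the test (0.071 ± 0.035 on the log2 scale, SE, adjusted p = 0.141 from edgeR). Ncoa4 held between 11.6% and 44.0% of the counts of both rows. Their sum was 219, 320.0 and 209 CPM in the Ctrl libraries and 234, 206 and 226 CPM in the l-FA libraries, a log2 fold change of -0.17 (adjusted p = 0.436 from edgeR). The estimate for the Ncoa4 row thus moved toward 0 without Ctrl library 2 and with the Ncoa4-ps row added.

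**Figure D4:**
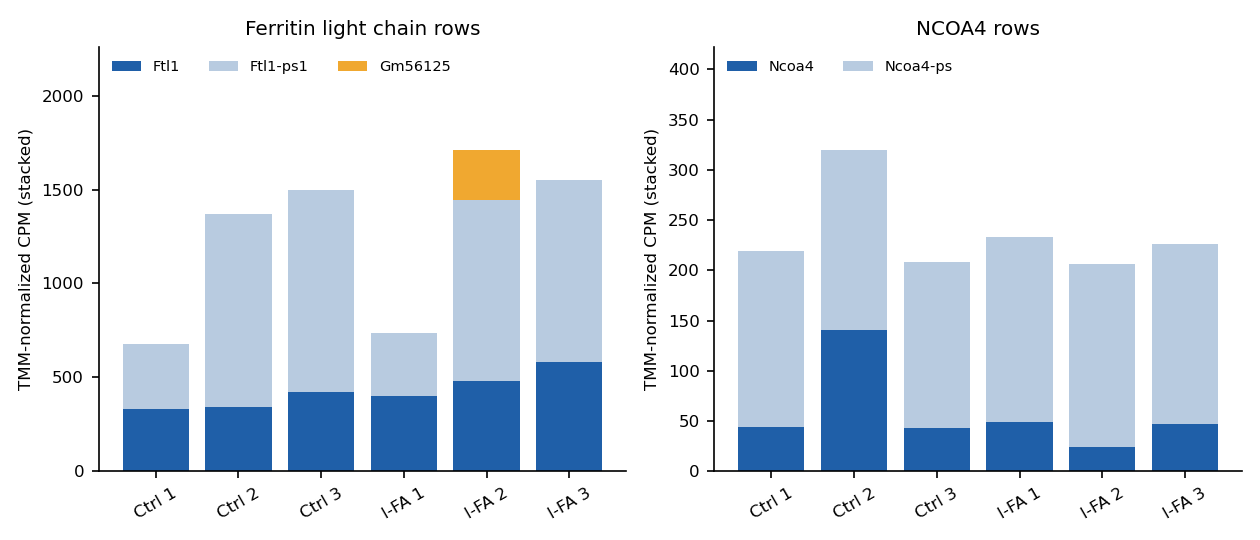
TMM-normalized CPM of rows with shared sequence, stacked for each library, for the ferritin light chain (left) and NCOA4 (right). Ftl1-ps1 is low in library 1 of both groups, Gm56125 is tall enough to be seen in l-FA library 2, and Ncoa4 is highest in Ctrl library 2 while Ncoa4-ps is similar in height in all 6 libraries.

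Among the sensors, Ireb2 (ENSMUSG00000032293, listed on chromosome 9 from 54771073 to 54819814) had 39.7, 37.7 and 37.8 CPM in the Ctrl libraries and 56.6, 54.5 and 53.4 CPM in the l-FA libraries. The groups were apart and the libraries close within each, a 1.43-fold rise (0.51 ± 0.045 on the log2 scale, SE, adjusted p = 0.00021 from edgeR). Aco1 (ENSMUSG00000028405, listed on chromosome 4 from 40143081 to 40198338), whose protein is an aconitase when it holds an iron-sulfur cluster and IRP1 when it does not, had 93.2, 94.2 and 94.8 CPM in the Ctrl libraries and 91.6, 97.2 and 87.9 CPM in the l-FA libraries. The groups overlapped, and the 95% interval of its log2 fold change was -0.13 to 0.08 (-0.028 ± 0.043 on the log2 scale, SE, adjusted p = 0.628 from edgeR), so a change of the size seen in Ireb2 lay outside it. Per length, Aco1 remained the more abundant of the pair, with a ratio of Aco1 to Ireb2 FPKM of 4.94 ± 0.183 for Ctrl and 3.39 ± 0.176 for l-FA (n = 3, SD; two-sided exact permutation p = 0.1, the smallest that 3 libraries against 3 allow). Fbxl5 (ENSMUSG00000039753, listed on chromosome 5 from 43901957 to 43978980) had 79.4, 82.6 and 85.6 CPM in the Ctrl libraries and 84.0, 89.3 and 81.6 CPM in the l-FA libraries. The groups overlapped, with a 95% interval of -0.07 to 0.16 (0.042 ± 0.048 on the log2 scale, SE, adjusted p = 0.514 from edgeR). Its ubiquitin ligase partners Skp1, Cul1 and Rbx1 did not pass either, with log2 fold changes of 0.0044, -0.079 and -0.044. The RNA of IRP2 thus rose while that of the ligase that removes its protein did not pass the test.

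Set beside the position of the IRE, Tfrc and, by the looser rule of 4 stem pairs, Slc11a2 had a loop in the 3′ untranslated region, and both fell. Of the 3 with a loop in the 5′ untranslated region 1 rose (Fth1), 1 fell (Slc40a1) and 1 did not pass (Ftl1). Of the 5 genes without a loop 1 rose (Ireb2) and 4 did not pass. Among all genes tested 25.0% were lower and 25.5% higher, and these counts are too small to be told apart from those shares. Outside the 10 genes, Cdc14a and Hao1 also had a 3′ loop of 4 stem pairs. Cdc14a did not pass, and Hao1 was lower on few counts. Tfrc and Slc11a2 RNA therefore moved opposite to Fth1 RNA, and Slc40a1 did not move with Fth1. Translation, RNA decay and IRP binding were not measured in these libraries, and their part in these changes was not tested. The strand setting of the counting is not given, and the rows that overlap Slc11a2, Fth1 or Fbxl5 held at most 15 counts in a library.

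Levels between genes were compared by the authors' FPKM, which divides counts by gene length. The Ftl1 and Ncoa4 rows have no place in this order, since both share sequence with rows at 557 ± 278 (Ftl1-ps1) and 89.7 ± 3.12 FPKM (Ncoa4-ps) in Ctrl, against 111 ± 15.2 and 5.68 ± 4.20 FPKM on their own rows (SD, n = 3). For the other 8 genes the order in Ctrl was Fth1, Aco1, Tfrc, Slc11a2, Fbxl5, Ireb2, Slc40a1 and Steap3, from Fth1 at 93.3 ± 3.96 to Steap3 at 2.14 ± 0.923 FPKM. The libraries of Slc11a2 and Fbxl5 and of Slc40a1 and Steap3 overlapped, so these neighbours are not ordered. The heavy chain lay far above the next gene, Aco1, at 18.4 ± 0.224 FPKM. In l-FA Tfrc was at 5.53 ± 0.272 FPKM, where its libraries overlapped those of Ireb2 (5.62 ± 0.184) and Fbxl5 (5.37 ± 0.248), while in Ctrl its libraries lay above both of them. Slc40a1 had the lowest l-FA level of the 8 genes, 1.35 ± 0.126 FPKM, just under Steap3 at 1.58 ± 0.0851. The ratio of Tfrc to Fth1 FPKM went from 0.118 ± 0.00809 to 0.0496 ± 0.00331 (SD, n = 3; two-sided exact permutation p = 0.1, the smallest possible). Libraries of the groups were already apart for both genes, in opposite directions, so this p-value was fixed by them and adds nothing.

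Other genes of iron handling were taken from 72 genes in 6 hand-written lists, of which the table lists 65 and 56 were tested. Of these 14 were lower, 11 higher and 31 did not pass, with a median log2 fold change of -0.053, beside the 50.5% called among all genes. The list of mitochondrial iron import and iron-sulfur cluster assembly had 7 lower and 3 higher of 26 (median -0.10). Slc25a28, which encodes mitoferrin 2, fell in it from 13.8 ± 0.285 to 9.71 ± 1.58 CPM (SD, n = 3; -0.51 ± 0.125 on the log2 scale, SE, adjusted p = 0.0143 from edgeR), and Ciapin1, a cytosolic iron-sulfur assembly factor, from 155 ± 6.91 to 108 ± 9.75 CPM (-0.51 ± 0.069 on the log2 scale, SE, adjusted p = 0.00115 from edgeR). All 3 libraries of l-FA were below all of Ctrl for both genes. The list of ferritin handling and iron chaperones had 3 lower and 1 higher of 7. Pcbp1, a chaperone that hands iron to ferritin, had 184, 179 and 187 CPM in the Ctrl libraries and 126, 125 and 116 CPM in the l-FA libraries and fell with groups apart (-0.59 ± 0.039 on the log2 scale, SE, adjusted p = 7.93e-05 from edgeR), while Pcbp2 did not pass (-0.065, adjusted p = 0.407 from edgeR).

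The uptake and endosome list had 5 higher and 2 lower of 12. The 2 lower were Lcn2 and Hfe. Lcn2, which also belongs to the neutrophil list above, had 58, 59 and 71 counts for Ctrl and 26, 27 and 22 for l-FA. Its log2 fold change was -1.40 ± 0.150 (SE, adjusted p = 0.000453 from edgeR), and that of Hfe -0.34 ± 0.068 (adjusted p = 0.00626 from edgeR). Slc22a17, a receptor for the iron-carrying protein lipocalin 2, rose from 19.3 ± 1.34 to 28.8 ± 2.76 CPM (SD, n = 3; 0.58 ± 0.091 on the log2 scale, SE, adjusted p = 0.00215 from edgeR). Tfr2, the second transferrin receptor, rose in the libraries in which Tfrc fell, from 161 ± 5.47 to 196 ± 5.49 CPM (0.28 ± 0.036 on the log2 scale, SE, adjusted p = 0.000981 from edgeR), and it also belongs to the erythroid list above. Scara5, a ferritin receptor singled out for its values, was at 0 in every Ctrl library and at 21, 23 and 26 counts in the l-FA libraries, at least 7.37-fold higher against a floor of 3 counts per library. Of 10 genes of export and the hepcidin axis 2 were tested, and Cp, an oxidase that aids iron export, rose on 4, 5 and 2 counts for Ctrl and 14, 14 and 20 for l-FA.

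Among other transcripts known or proposed to hold an IRE, Cdc14a, with a 3′ loop of 4 stem pairs, did not pass (-0.11, adjusted p = 0.0539 from edgeR), nor did Cdc42bpa (-0.26, adjusted p = 0.0647) or Epas1 (-0.50, adjusted p = 0.131). Hao1, also with a 3′ loop of 4 stem pairs, was called lower and Pfn2 higher, on 16, 12 and 22 against 8, 5 and 6 counts and 2, 0 and 1 against 12, 10 and 10 counts in Ctrl and l-FA. The search found no loop in Cdc42bpa, Epas1 or Pfn2. Alas2, the erythroid enzyme that starts heme synthesis, had at most 10 counts in a library and was not tested.

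**Figure D5:**
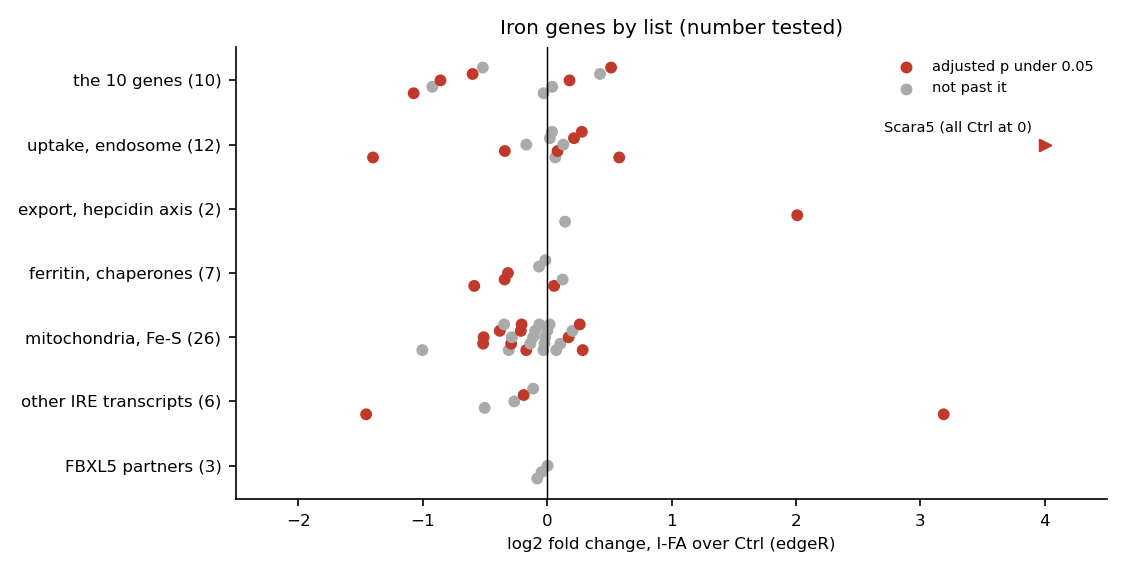
Log2 fold change (horizontal axis, l-FA over Ctrl, edgeR) of each gene tested, by list, coloured where the adjusted p is under 0.05. Genes called lie on both sides of 0 in the lists of uptake, ferritin handling and mitochondria, and Scara5, at 0 in every Ctrl library, is drawn at the edge of the axis.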

How the data were processed

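Reads of amplified cDNA were deposited by the authors as whole-number counts per gene for 27198 genes, without normalization, together with FPKM values the authors made from the same libraries. The submitters' processing notes name HISAT2, SAMtools 1.3.1, StringTie, edgeR and GRCm39, without roles; the gene annotation, strand setting and treatment of reads with several matches are not given in the sources used here, and table coordinates are printed as listed. Transcript sequences and loop coordinates come from GENCODE M21 (GRCm38) and are not mixed with them.

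The model was edgeR's quasi-likelihood fit (edgeR 4.0.16 under R 4.3.3; TMM, filterByExpr) on 16520 genes kept, with Benjamini-Hochberg adjustment. Standard errors (SE) were the absolute log2 fold change over the root of the F statistic. The fit was tested on simulated data. DESeq2 1.42.0, other scalings and filters (including 10 counts in every library), a replicate block, a fold change above 2, a test against a 1.2-fold change, summed pseudogene rows and leaving out each library were alternatives. The sums with Ncoa4-ps and Gm56125 were chosen after seeing the data. The members and lists were chosen with earlier results of these data known. Named genes are the members, ferritin pseudogene rows with a mean count of at least 100, called genes of the wider lists with a log2 fold change of at least 0.5 in size and a mean count of at least 100, the other IRE transcripts, and the most abundant markers, and any other gene is named after its values were seen (Tfr2, Lcn2, Hfe, Pcbp2, Scara5, Cp, Marco, Cd5l, Vcam1, Adgre1, Mrc1, C1qb, Skp1, Cul1, Rbx1, Ncoa4-ps and Gm56125). A symbol listed more than once was read from its row with the highest count. The floor is 3 counts per library, and counting error covers only part of the error of amplified cDNA. Libraries were assigned by their labels. Protein and iron measurements of the study were not analysed here. A result for another IRE transcript is not reported here.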

Additional observations from a re-analysis of the deposited data

How the results depend on the processing

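Tfrc, Slc11a2, Slc40a1, Fth1 and Ireb2 kept their direction and their side of the threshold under the 16 alternatives run for each at an adjusted p under 0.05, while Fth1 did not pass the test against a 1.2-fold change, and under leave-one-out Tfrc stayed between -1.09 and -1.02 on the log2 scale. Ncoa4 and Fbxl5 did not pass under any of them, with Ncoa4 from -1.21 to -0.12 when 1 library was left out. Ftl1 passed with RLE scaling (0.43, adjusted p = 0.0486 from edgeR), upper-quartile scaling (0.45, 0.0429), DESeq2 (0.43, 0.0468), at least 10 counts in every library (0.43, 0.0492) and the sum with Gm56125 alone (0.67, 0.0424), and spanned 0.29 to 0.56 with 1 library left out, passing without Ctrl library 3 and without l-FA library 1. The cause was not tested. Steap3 ranged from -0.84 to -0.32 with 1 library left out. Aco1 changed sign to 0.018 without l-FA library 3 (adjusted p = 0.759 from edgeR), and ranged from -0.055 to 0.018.

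Of the 10 genes, 5 to 6 passed with 1 library left out, 4 in the test against a 1.2-fold change and 1 with a fold change above 2. Of all genes tested 50.5% passed in the main fit and 11.8% with a fold change above 2. The share of all genes under the other settings is not given here, so the counts under them cannot be set against it. Of the wider lists 25 passed, 22 to 26 with 1 library left out, 8 against a 1.2-fold change (4 lower, 4 higher) and 5 with a fold change above 2 (2 lower, 3 higher), which both of these settings fix by their limit on size. The replicate number as a block gave 6 of the 10 genes and 20 of the wider lists. Ftl1 was the gene added (0.42, adjusted p = 0.00521 from edgeR). Deviations of same-numbered libraries from the mean of their group were hardly correlated (r from -0.050 to 0.019), and not every library correlated best with its own number. Correlations over all genes tested do not speak to single rows, such as Ftl1-ps1, which split by replicate number. Whether same-numbered libraries share more than a number was not tested.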
